A study of Mus musculus with 3 samples.

Results

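The genes described are 10 genes of amino acid metabolism and transport: Il4i1, Ass1, Fah, Pycr1, Psat1, Phgdh, Asns, Slc7a5, Slc3a2 and Slc7a11. All 10 were found by symbol among the 32285 genes of the count matrices, and they were read out by B cell state and by treatment. They were chosen by measured values of these data: Il4i1, Ass1 and Fah by their levels by state or treatment, and the synthesis and transport genes by their levels in plasmablasts. The levels by state of all 10, and the treatment differences of Il4i1, Ass1 and Fah, are therefore given as a description with no test. What the choice did not use, and what was tested, is the treatment difference of the other 7 within each state.

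Single spleen B cells came from female BXD2 mice, labelled wild-type. BXD2 is a recombinant inbred line known for spontaneous autoimmunity resembling lupus. Every animal was given R848, which activates TLR7, an endosomal sensor of RNA, at 40 µg per 20 g of body weight, so no untreated group is compared here. It followed by 2 hours a first injection, which held 5 µg of IL-4 in a long-acting complex with 25 µg of antibody to IL-4 in the group called IL-4+R848, and 25 µg of the antibody without cytokine in the group called R848. Both injections were given again 2 days on, and another 2 days passed before spleens of 3 mice per treatment were collected. B cells were enriched by removing other cells, and hashtag-stained cells of the 2 treatments were pooled into 3 libraries (sets 1 to 3). The labels give no ages, and whether a set is 1 mouse of each treatment is not stated, so a p-value here reflects only how far these sets spread, which may be technical.

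B cells handle amino acids in ways that change with their state. A resting B cell makes and imports little, a dividing B cell needs serine for nucleotides, and a plasmablast, the dividing precursor of an antibody-secreting plasma cell, needs amino acids in bulk for secreted immunoglobulin. When amino acids run short or the endoplasmic reticulum is loaded, the factor ATF4 is translated and turns on many synthesis genes, importers and tRNA synthetases. Il4i1 stands apart, since it encodes a secreted enzyme that destroys aromatic amino acids and was first found as a gene induced by IL-4 in B cells.

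The members fall into 4 groups by role. Il4i1, the L-amino acid oxidase, and Fah, the enzyme of the last step of tyrosine breakdown, remove amino acids. Ass1 joins citrulline to aspartate, the step that commits to arginine synthesis. Phgdh and Psat1 are the opening steps of serine synthesis, Pycr1 makes proline in mitochondria and Asns makes asparagine. Slc7a5 is the light chain of the large neutral amino acid exchanger LAT1, Slc7a11 that of the cystine-glutamate exchanger, and Slc3a2 (CD98) is the heavy chain that both need at the cell surface.

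All 10 are protein-coding genes, and on the GRCm38 build they lie as follows. Il4i1 is at chr7:44816387-44840809 (plus strand), Ass1 at chr2:31470207-31520672 (plus) and Fah at chr7:84585159-84606722 (minus). Pycr1 is at chr11:120635712-120643769 (minus), Psat1 at chr19:15904678-15947337 (minus), Phgdh at chr3:98313170-98339990 (minus) and Asns at chr6:7675169-7693254 (minus). Slc7a5 is at chr8:121881150-121907694 (minus), Slc3a2 at chr19:8706882-8723369 (minus) and Slc7a11 at chr3:49892526-50443614 (minus). The strand setting of the counting is not given in the sources used here. The exons of Il4i1 share 3423 of their 4080 bases with exons of Tbc1d17 on the opposite strand. They also share 97 bases with exons of Nup62 on the same strand and 82 with exons of Atf5 on the opposite strand. Strand cannot separate Il4i1 from Nup62. How far reads of these genes enter the Il4i1 counts was not tested.

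Promoters are shown because several members were high in the same cells and because ATF4 is known to act through a defined element. RefSeq windows of 300 bases on GRCm38.p6 (250 before and 50 after a start) matched 9 of the 10 members. They were searched on both strands for TGATGNAAN, the composite element of ATF4 and C/EBP, for CACGTG, the E-box, and for the STAT6 palindrome, which is TTC, any 4 bases and GAA. Of 32851 windows of this length, 3.95%, 7.15% and 6.95% hold these motifs. The ATF4 element matched in 3 members and the E-box in 1, as shown here from 5′ to 3′ on the gene's strand with the matched letters in capitals.
Pycr1, chr11:120643779-120643898, minus strand: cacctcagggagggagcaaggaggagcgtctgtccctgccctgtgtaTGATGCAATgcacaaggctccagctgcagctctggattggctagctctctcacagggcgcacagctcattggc
Asns, chr6:7693213-7693242, minus strand: cccagccacaTGATGAAACttcccgcacgc
Slc7a11, chr3:50443644-50443763, minus strand: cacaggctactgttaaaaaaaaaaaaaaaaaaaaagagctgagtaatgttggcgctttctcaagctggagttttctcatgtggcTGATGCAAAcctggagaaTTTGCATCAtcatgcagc
Ass1, chr2:31470222-31470251, plus strand: cgcgcccgtcccCACGTGtcccaggttcct
The Pycr1 match begins 103 bases before the start, the Asns match 23 and the Ass1 match 36. These are RefSeq starts, and those of Asns and Ass1 lie inside the gene spans given above. The stretches printed for Asns and Ass1 therefore lie within these spans, and each overlaps an annotated exon. Slc7a11 has 1 match 66 bases before the start and another, on the other strand, 48 bases before it. No STAT6 palindrome was found in the window of Il4i1 or of any other member, which says only that these letters are not in these windows. A match is a description of sequence and not evidence that a factor binds there.

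Sets 1 to 3 held 14519, 11389 and 14222 barcodes with 107244246, 96866964 and 99522280 gene UMIs (unique molecule counts), and 35102 cells with 1 hashtag passed the filters, 4579 to 7530 per set and treatment. Median depth was 4445.5 to 6995 UMIs per cell. Pairs of sets shared 230, 289 and 219 barcodes, of which 172, 209 and 168 were kept cells. The cells were B cells by their markers: Cd79a was detected in 98.9% and Ms4a1 (CD20) in 90.4% of all cells. Clustering without the members gave 24 clusters, and 29149 cells (83.0%) fell into the 10 classes used, named by marker lists as follicular-like, transitional-like, marginal zone-like, germinal center-like, cycling-like, plasmablast-like and precursor-like, plus an activated-like class, a second activated-like class led by Egr2 and Egr1 (Egr-led), and a cluster led by Zbtb32 and Cd80. The Zbtb32 cluster raised 5 of 7 markers of the age-associated B cell list, which includes Zbtb32, and 3 of 4 of the B-1 cell list. It is called by its leading gene.

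Plasmablast-like cells also stained for CD138, an antibody readout that the clustering did not use, with medians of 252, 215.5 and 200 UMIs per cell in the 3 sets against at most 12 in any other class. Of the 3024 cells of this class, 584 lay in a cluster that raised 6 cycling markers. Its other clusters, of 1505, 841 and 94 cells, raised 1 each. The class is thus not made up of dividing cells alone. Levels are CPM, the UMIs of a gene summed over the cells of a class in a set and treatment and scaled to the total of that sum, with totals normalised by TMM, and are given as mean ± SD over the 3 sets. Plasmablast-like cells held a median of 17122.5 to 20265 UMIs and immunoglobulin genes took 39.0% to 42.9% of them, against at most 4.38% in the other classes. For most members, UMIs per cell are therefore given beside the CPM for plasmablast-like cells and for some of the other classes. With IL-4+R848, plasmablast-like cells went from 10.4% to 5.93% of a set's cells on average and germinal center-like cells from 6.44% to 2.97%. A further 5750 cells (16.4%) stayed unnamed, among them cluster 4, of whose cells 96.9% were from IL-4+R848.

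Il4i1 was higher with IL-4+R848 than with R848 in every class, and activated-like cells held the most of it under both treatments. In follicular-like cells Il4i1 stood at 86.0, 116 and 94.5 CPM in sets 1 to 3 with R848 and at 349.8, 376 and 349 CPM with IL-4+R848. In transitional-like cells, which are recent arrivals from the bone marrow, it stood at 69.6, 52.5 and 79.7 CPM and at 414, 466 and 449 CPM. In activated-like cells it stood at 314, 398 and 333 CPM and at 762, 969 and 541 CPM. In all 3 classes every IL-4+R848 set lay above every R848 set, and activated-like cells with R848 were already at the level that follicular-like cells reached with IL-4.

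The groups did not overlap in 10 of the 10 classes, and each of the 3 sets was higher in each of them. The share of all genes called between treatments was 10.8% in follicular-like cells and lower in the other classes, down to 0% in plasmablast-like cells, and nothing is read from the Il4i1 count, since its treatment difference was among the reasons for its choice. The log2 fold change was 2.71 (SE 0.12) in transitional-like and 1.85 (SE 0.09) in follicular-like cells. It lay between 1.70 and 1.92 in marginal zone-like, cycling-like, Egr-led and Zbtb32 cluster cells and was 1.15 (SE 0.16) in activated-like and 0.69 (SE 0.17) in germinal center-like cells. In precursor-like cells it was 2.58, but the set ratios ran from 1.81 to 46.2. The lowest R848 value there was 2.56 CPM, so this separation lies near the floor of the counts. Adding the unnamed clusters 4 and 5 to the follicular-like class gave 2.32.

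With R848 the order ran from activated-like cells at 348 ± 43.6 CPM through Egr-led cells at 111 ± 46.6 and follicular-like cells at 98.8 ± 15.4, down to plasmablast-like cells at 20.9 ± 10.5 CPM. Only the step below activated-like cells was free of overlap between neighbours in this order. With IL-4+R848 the order was activated-like (758 ± 214 CPM), transitional-like (443 ± 26.7) and follicular-like (358 ± 15.7), and these 3 did not overlap. Egr-led (343 ± 99.1), Zbtb32 cluster (314 ± 38.4), marginal zone-like (164 ± 33.1), cycling-like (134 ± 19.2), germinal center-like (81.0 ± 18.7), precursor-like (69.4 ± 42.5) and plasmablast-like cells (50.6 ± 19.8) followed. These orders hold for CPM. Median depth with IL-4+R848 was 2539 to 3646 UMIs in transitional-like and 5291 to 7464 in follicular-like cells. The lead of transitional-like over follicular-like cells therefore need not hold per cell.

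**Figure D1:**
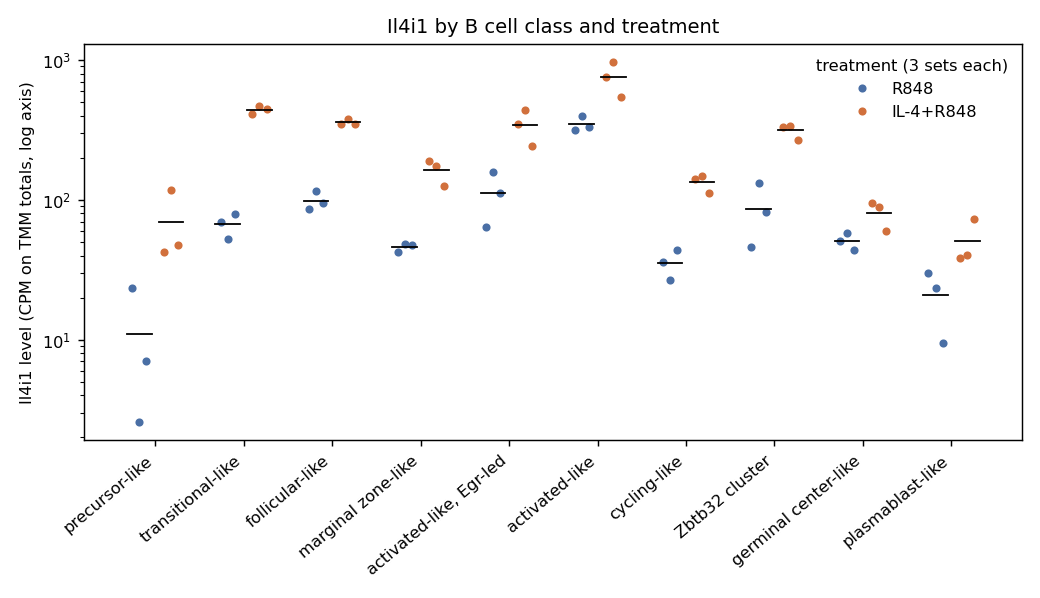
Il4i1 level in each B cell class as CPM on TMM-normalised totals, on a log axis; points are the 3 sets of each treatment and black bars their means. In each of the 10 classes the IL-4+R848 points lie above the R848 points, and activated-like cells are highest under both treatments (348 and 758 CPM).

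In plasmablast-like cells Il4i1 stood at 29.996, 23.3 and 9.46 CPM with R848 and at 38.2, 40.2 and 73.4 CPM with IL-4+R848. The difference rested on set 3 most, where it was 7.76-fold against 1.27-fold in set 1, and the log2 fold change went from 1.28 to 0.54 without set 3. Per cell this was 0.184 and 0.489 UMIs. NK cell-like cells, which serve as a gauge of free RNA, held 0.0122 and 0.190 UMIs per cell, or 1.19 ± 2.07 and 16.6 ± 14.4 CPM. With cells thinned to 2000 UMIs, 1.29% and 3.65% of plasmablast-like cells held an Il4i1 UMI against 0% of 78 (which allows up to 3.85%) and 2.56% of NK cell-like cells. The CPM of plasmablast-like cells thus lay above those of NK cell-like cells, while a difference in the share of cells was not detectable with so few NK cell-like cells. Follicular-like cells at the same depth went from 13.4% to 35.0% and transitional-like cells from 9.82% to 39.4%.

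Within the germinal center-like class, Il4i1 took a larger share of the UMIs of cells outside division. Cells with fewer than 2 UMIs of the cycling markers held 166 ± 61.6 raw CPM with R848 and 246 ± 120.3 with IL-4+R848, where raw CPM are taken on totals without TMM. Dividing cells of the same class held 42.4 ± 7.09 and 66.0 ± 22.9. Most Il4i1 UMIs still came from the dividing cells, 798 against 263 with R848 and 490 against 167 with IL-4+R848. On the raw CPM scale the non-dividing cells were higher in 3 of 3 sets under both treatments, by 3.91-fold and 3.72-fold, and how many of them are cells of another class was not tested.

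Ass1 and Fah both had their highest mean CPM in the Zbtb32 cluster, for Fah with an overlap with germinal center-like cells under IL-4+R848. Ass1 stood there at 226, 198 and 308 CPM with R848 and at 225, 234 and 180.0 CPM with IL-4+R848, and no set of any other class reached these values. In follicular-like cells it stood at 14.7, 17.5 and 13.9 CPM and at 24.5, 20.6 and 22.5 CPM. Averaged over treatments the Zbtb32 cluster was 3.65 log2 units above follicular-like cells for Ass1 and 3.36 for Fah, as a description.

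The next classes for Ass1 were cycling-like cells at 103 ± 42.5 and 114 ± 9.27 CPM and plasmablast-like cells at 79.1 ± 7.51 and 70.9 ± 17.3 CPM with R848 and IL-4+R848. Germinal center-like cells followed at 33.2 ± 5.26 and 41.3 ± 10.3 CPM, and the other classes had means of at most 30.03 CPM. Cycling-like and plasmablast-like cells overlapped with R848 and did not with IL-4+R848. This order holds for CPM. With R848, median depth was 11505 to 16088 UMIs in cycling-like and 5305 to 6692 in Zbtb32 cluster cells. With IL-4+R848 it was 11255.5 to 14727.5 and 7056 to 9016. The lead of the Zbtb32 cluster in Ass1 CPM therefore need not hold per cell. Of cells thinned to 2000 UMIs, 24.3% and 24.5% of the Zbtb32 cluster held an Ass1 UMI against 1.91% and 2.99% of follicular-like cells. NK cell-like cells gave 8.97% and 0.855%, with 0 to 86.0 CPM over the R848 sets of this small group.

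Fah stood in the Zbtb32 cluster at 43.6, 61.9 and 63.1 CPM with R848 and at 45.3, 26.7 and 33.1 CPM with IL-4+R848. The ranges overlap through set 1, the only set that was not lower with IL-4. Germinal center-like cells were next, at 29.5, 32.9 and 31.5 CPM with R848 and at 27.9, 25.3 and 15.4 CPM with IL-4+R848, so that the 2 treatments did not overlap in these cells. Against the Zbtb32 cluster they did not overlap with R848 and did with IL-4+R848. Per cell the order of the 2 classes was the reverse, with 0.501 and 0.424 Fah UMIs in germinal center-like and 0.360 and 0.270 in Zbtb32 cluster cells. Plasmablast-like cells held 13.7 ± 4.19 and 8.71 ± 3.88 CPM and follicular-like cells 4.62 ± 0.222 and 4.20 ± 0.925 CPM. Plasmablast-like cells held 0.125 and 0.0992 Fah UMIs per cell, and 0.746 and 0.773 Ass1 UMIs. On the CPM scale Fah thus followed Ass1 in the Zbtb32 cluster, but was higher in germinal center-like than in plasmablast-like cells, where Ass1 had the opposite order.

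**Figure D2:**
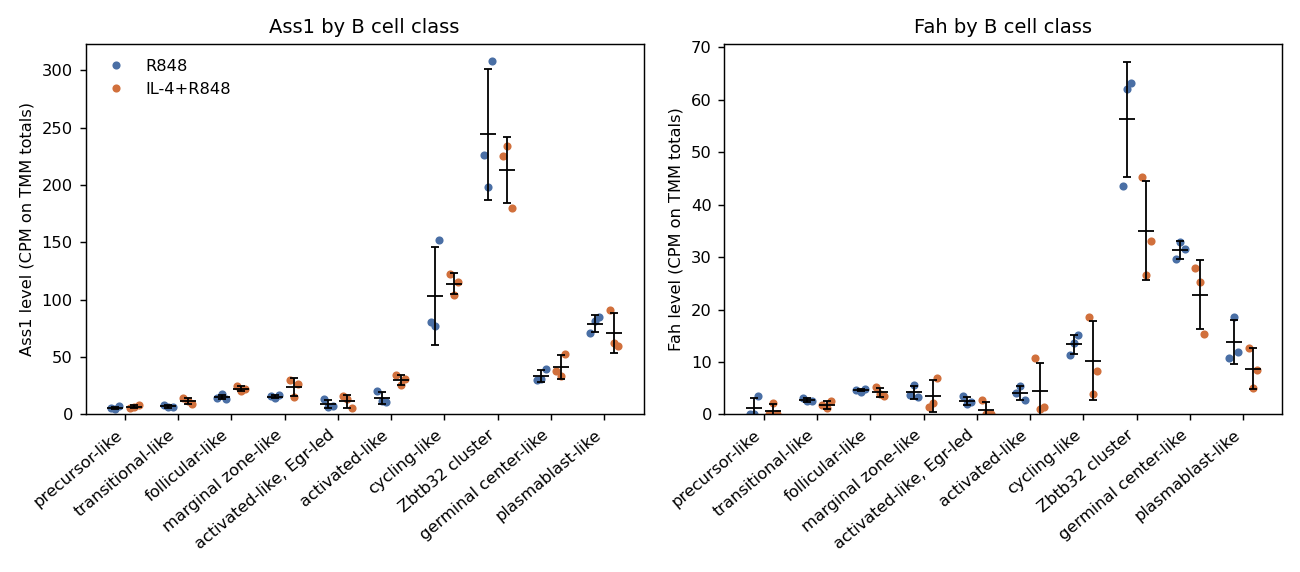
Ass1 (left) and Fah (right) level in each B cell class as CPM on TMM-normalised totals; points are the 3 sets of each treatment, and black bars the mean and SD. The Zbtb32 cluster has the highest mean for both (244 and 213 CPM for Ass1, 56.2 and 35.0 CPM for Fah, with R848 and IL-4+R848).

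By treatment, Ass1 had non-overlapping groups in 3 of 10 classes and Fah in 1 of 10. The share of all genes with such a separation was not computed, so nothing is read from these counts. In activated-like cells Ass1 went from 14.3 ± 5.01 to 30.03 ± 4.42 CPM (log2 fold change 1.10), in follicular-like cells from 15.3 ± 1.89 to 22.5 ± 1.90 CPM (0.55) and in transitional-like cells from 7.10 ± 1.04 to 11.8 ± 2.83 CPM (0.69). In the classes that held the most Ass1 the log2 fold change was near 0, at -0.20 in the Zbtb32 cluster, 0.15 in cycling-like and -0.14 in plasmablast-like cells. For Fah it was -0.65 (SE 0.20) in the Zbtb32 cluster and -0.41 (SE 0.19) in germinal center-like cells. These differences carry no test, since both genes were chosen for their pattern.

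Dividing cells held more Ass1 than the other cells of their own class. In the Zbtb32 cluster they held 425 ± 187.5 against 192 ± 34.8 raw CPM with R848 and 318 ± 106 against 164 ± 17.5 with IL-4+R848. In plasmablast-like cells the values were 53.2 ± 5.54 against 29.3 ± 2.87 and 49.1 ± 10.3 against 24.8 ± 5.02. The dividing cells were higher in 3 of 3 sets in all of these comparisons, by 1.82- to 2.22-fold, and the dividing part of the Zbtb32 cluster is small, with 9 cells in its smallest IL-4+R848 set.

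Ass1 also differed by heavy chain among plasmablast-like cells with R848. Cells assigned to IgM by their most abundant constant gene held 25.1 ± 3.13 raw CPM, against 45.5 ± 7.48 for Ighg1, 52.0 ± 5.40 for Ighg2b, 42.4 ± 2.18 for Ighg2c and 53.5 ± 10.6 for Ighg3. Cells of Igha were few (36) and spread widely, at 84.3 ± 92.0. The IgM value lay below each of the IgG values by more than the spread between sets, and whether the isotypes differ in their share of dividing cells was not tested here. With IL-4+R848 Ighm cells held 28.8 ± 3.81 and Ighg1 cells 25.4 ± 17.9, while Ighg2b and Ighg2c cells held 41.2 ± 11.9 and 47.4 ± 6.79. In the Zbtb32 cluster the R848 values ran from 130.2 ± 79.9 for Igha and 189 ± 19.4 for Ighm to 408 ± 136 for Ighg2c. The IgG constant genes share sequence, so reads can be split between them.

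The synthesis genes divided between germinal center-like and plasmablast-like cells. Phgdh, the entry to serine synthesis, stood in plasmablast-like cells at 299, 309.6 and 361 CPM with R848 and at 381, 326 and 344 CPM with IL-4+R848. In follicular-like cells it stood at 89.0, 70.5 and 78.1 CPM and at 82.0, 77.5 and 70.0 CPM. Between these came germinal center-like (201 ± 24.3 and 214 ± 31.7 CPM), cycling-like (177 ± 3.44 and 180.5 ± 30.5) and activated-like cells (165 ± 9.71 and 172 ± 38.3), whose ranges touched or overlapped in that order. Per cell, plasmablast-like cells held 3.07 and 3.66 Phgdh UMIs, germinal center-like cells 3.16 and 3.86 and follicular-like cells 0.371 and 0.418. The lead of plasmablast-like cells in Phgdh CPM was thus not seen per cell, where germinal center-like cells were slightly higher under both treatments.

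Psat1, the aminotransferase of the next step, had another order. Germinal center-like cells held 109, 109 and 126 CPM with R848 and 109.7, 92.7 and 114 CPM with IL-4+R848. Plasmablast-like cells held 44.2, 53.4 and 68.0 CPM and 64.03, 58.3 and 72.2 CPM, and cycling-like cells 70.2 ± 5.95 and 62.8 ± 16.3 CPM. Germinal center-like cells lay above both without overlap, and follicular-like cells were far below, at 14.7 ± 1.13 and 14.6 ± 1.01 CPM. Per cell, germinal center-like cells held 1.82 and 1.89 Psat1 UMIs and plasmablast-like cells 0.530 and 0.662.

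Pycr1 was a gene of plasmablast-like cells alone among the 10 classes. It stood there at 97.8, 93.6 and 106 CPM with R848 and at 106, 89.0 and 92.0 CPM with IL-4+R848, from 2001 and 891 UMIs (0.936 and 1.00 per cell). Class means elsewhere were at most 3.13 CPM, so no fold is given. At 2000 UMIs per cell 9.39% and 8.56% of plasmablast-like cells held a Pycr1 UMI, against 0.0547% and 0.0358% of follicular-like cells and 0 of 78 and 0 of 117 NK cell-like cells, which allows shares of up to 3.85% and 2.56% by counting error.

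Asns was also highest in plasmablast-like cells. It stood at 19.7, 36.9 and 41.8 CPM with R848 and at 53.1, 37.0 and 37.1 CPM with IL-4+R848, and set 1 was both the lowest of the R848 and the highest of the IL-4+R848 values. Germinal center-like cells held 9.94, 11.3 and 13.2 CPM and 20.5, 11.1 and 21.6 CPM. The Zbtb32 cluster held 3.75 ± 2.30 and 6.93 ± 0.162 CPM and all other classes at most 3.58 CPM. Per cell, plasmablast-like cells held 0.315 and 0.460 Asns UMIs and germinal center-like cells 0.181 and 0.322.

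Both chains of LAT1 had their highest CPM in plasmablast-like cells. Slc7a5 stood there at 67.3, 90.3 and 83.7 CPM with R848 and at 91.7, 82.6 and 81.9 CPM with IL-4+R848. Activated-like cells held 50.2 ± 6.61 and 35.9 ± 9.34 CPM, germinal center-like cells 47.2 ± 3.81 and 41.2 ± 7.83 CPM and follicular-like cells 8.80 ± 0.361 and 8.79 ± 0.523 CPM. Per cell, however, plasmablast-like cells held 0.753 and 0.888 Slc7a5 UMIs, close to the 0.763 and 0.753 of germinal center-like cells. Activated-like cells, which held the most Il4i1, were thus 2.28 log2 units above follicular-like cells for Slc7a5, as a description.

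Slc3a2 stood in plasmablast-like cells at 361, 399 and 324 CPM with R848 and at 372, 362 and 298 CPM with IL-4+R848. The other classes had means between 37.8 and 113 CPM and overlapped with their neighbours in order. Set 2 gave the highest R848 value in all 10 classes, for example 102 CPM in follicular-like cells against 66.5 and 58.7, while with IL-4+R848 set 2 was highest in 6 classes and set 1 in 4. No member, Slc3a2 included, passed between treatments with the set as a block or without set 2. Per cell, plasmablast-like cells held 3.34 and 3.58 Slc3a2 UMIs and germinal center-like cells 1.42 and 1.28. Slc7a11 was near 0 everywhere, with class means of at most 1.85 CPM, and passed the filter on low counts in no class.

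**Figure D3:**
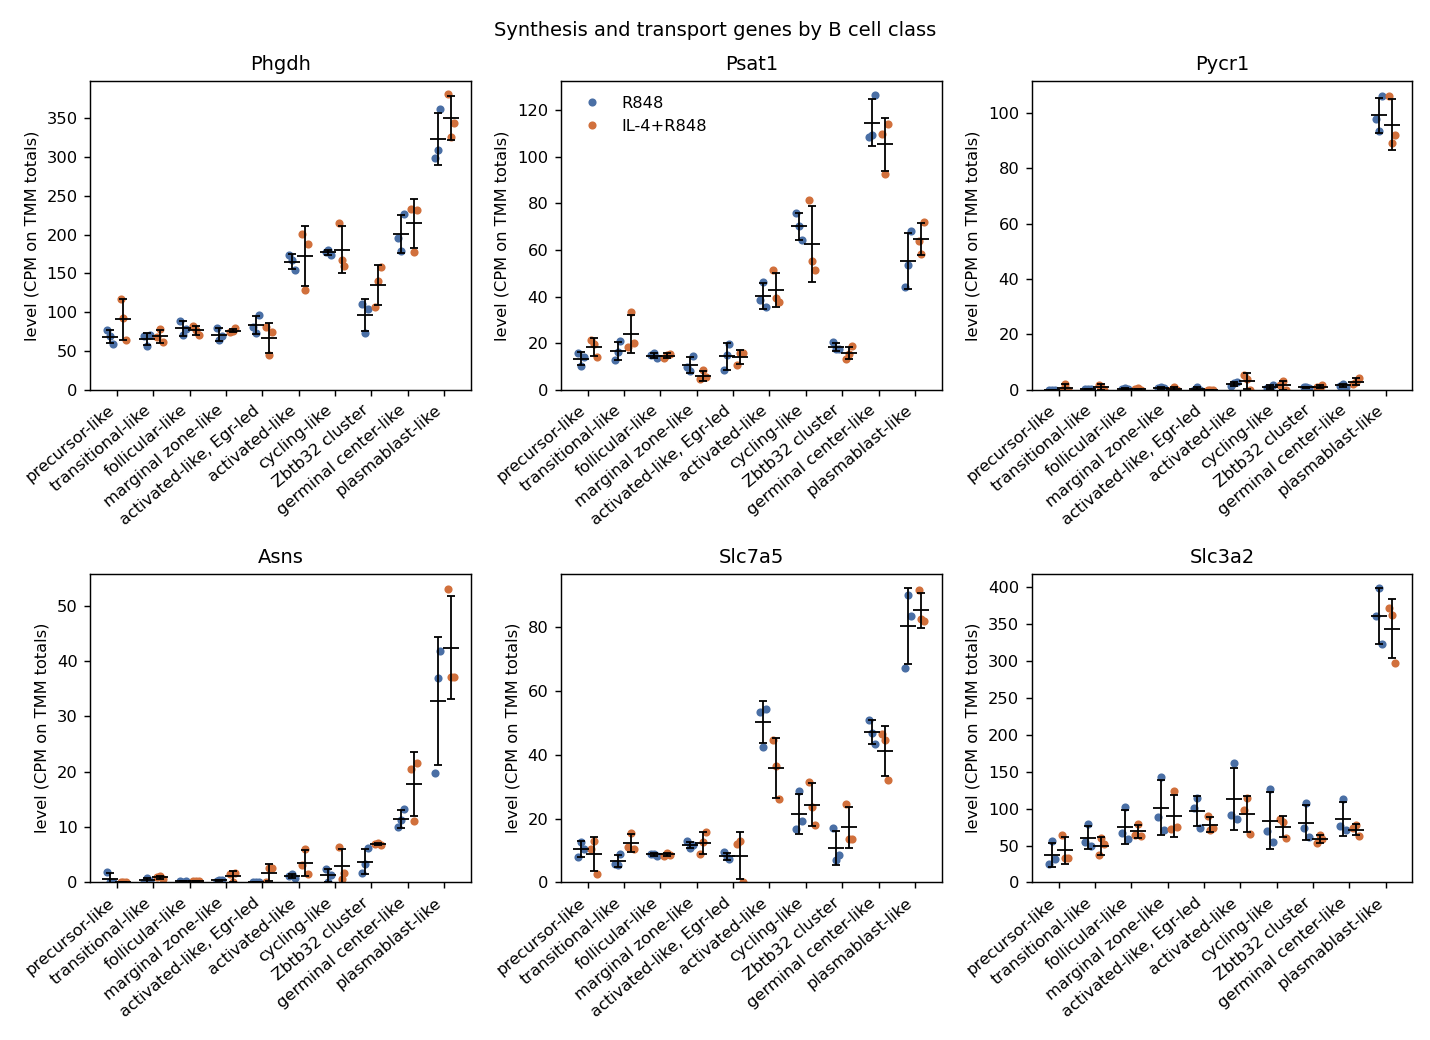
Level of 6 synthesis and transport genes in each B cell class as CPM on TMM-normalised totals; points are the 3 sets of each treatment, and black bars the mean and SD. On this CPM scale plasmablast-like cells are highest for Phgdh, Pycr1, Asns, Slc7a5 and Slc3a2, and germinal center-like cells for Psat1 (115 and 105 CPM). Counted as UMIs per cell, plasmablast-like cells do not lead germinal center-like cells for Phgdh.

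Within plasmablast-like cells, 5 members were higher in dividing cells in every set under both treatments, Ass1 (above), Psat1, Phgdh, Asns and Slc7a5, while Slc3a2 was lower. Dividing cells held 49.9 ± 8.39 raw CPM of Psat1 against 9.58 ± 3.34 in the others with R848, and 61.0 ± 9.90 against 8.27 ± 0.966 with IL-4+R848. These are 5.21- and 7.37-fold differences, seen in 3 of 3 sets under each treatment. Phgdh was 1.78- and 1.93-fold higher in dividing cells, in 3 of 3 sets, at 216 ± 18.8 against 121 ± 11.4 and 242 ± 7.58 against 126 ± 8.22. Asns was 1.31- and 1.49-fold higher and Slc7a5 1.25- and 1.20-fold higher. The immunoglobulin share of dividing and other cells, which enters these totals, was not compared. The rule of 2 cycling UMIs takes no account of depth. Median depth was 24930 UMIs in the plasmablast-like cluster that raised 6 cycling markers, and 19840, 12570 and 2750 in the others. How far depth enters the split was not tested.

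Pycr1 hardly differed by division, at 46.1 ± 3.32 against 54.0 ± 3.01 with R848 and 51.8 ± 4.97 against 47.9 ± 2.03 with IL-4+R848, and the direction differed between treatments. Slc3a2 was lower in dividing cells in 3 of 3 sets under both treatments, at 156 ± 31.3 against 209.6 ± 29.3 and 147 ± 37.1 against 209 ± 18.5. In germinal center-like cells Psat1 and Phgdh were likewise higher in dividing cells in 3 of 3 sets, by 2.35- and 1.79-fold with R848 and 2.82- and 2.56-fold with IL-4+R848. No test was run on these splits, which use the same cells that define the class.

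**Figure D4:**
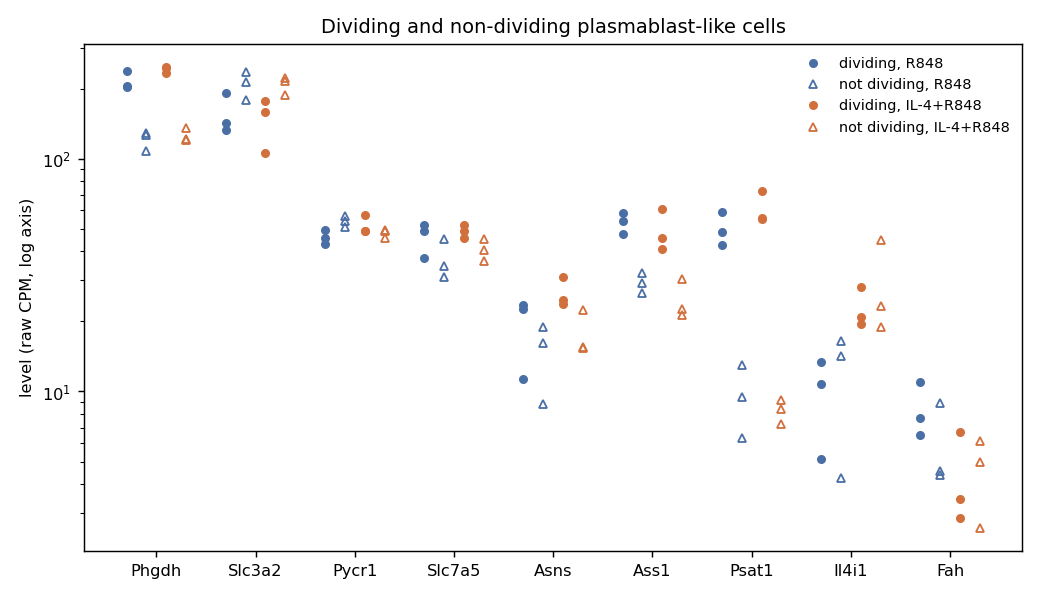
Member levels in dividing (filled circles) and non-dividing (open triangles) plasmablast-like cells as raw CPM on a log axis; each point is 1 of the 3 sets of a treatment. Psat1 shows the widest gap of the genes drawn (49.9 against 9.58 with R848), while Slc3a2 is lower in dividing cells.

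Whether IL-4 changes the 7 members other than Il4i1, Ass1 and Fah was tested within each class. No member passed: of 42 pairs of a member and a class with enough counts, 7 had an unadjusted p under 0.05 and 0 a Benjamini-Hochberg adjusted p under 0.05 over all genes in edgeR's quasi-likelihood test. DESeq2 gave 4 and 0. Against this, the share of all genes called was 10.8% in follicular-like, 6.36% in transitional-like, 2.79% in Zbtb32 cluster, 1.59% in activated-like, 1.55% in Egr-led and 1.54% in marginal zone-like cells. It was 1.16% in cycling-like, 0.298% in germinal center-like, 0.188% in precursor-like and 0% in plasmablast-like cells. In plasmablast-like cells edgeR called 0 of 10281 genes, with 507 at an unadjusted p under 0.05, and DESeq2 called 34. On simulated data this fit missed many genes changed 2-fold in these cells, so the absence of calls there does not show that members did not change.

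The lowest adjusted p belonged to Slc7a5 in transitional-like cells, which went from 5.90, 5.41 and 8.94 CPM to 11.1, 15.5 and 10.5 CPM. All 3 sets were higher and the groups did not overlap (log2 fold change 0.87, SE 0.29, edgeR BH-adjusted p = 0.105). Psat1 stood at 16.7 ± 3.90 and 24.0 ± 8.10 CPM in the same cells (0.56, SE 0.25, edgeR BH-adjusted p = 0.232). In the Zbtb32 cluster Phgdh stood at 96.2 ± 20.5 and 135 ± 26.1 CPM (0.47, SE 0.19, edgeR BH-adjusted p = 0.281) and Slc3a2 at 80.9 ± 23.9 and 58.5 ± 5.47 CPM (-0.48, SE 0.19, edgeR BH-adjusted p = 0.303). Asns in germinal center-like cells had a log2 fold change of 0.67 (SE 0.23, edgeR BH-adjusted p = 0.463).

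In plasmablast-like cells the estimated changes of the 6 members with enough counts were small. The log2 fold change and its interval of 1.96 SE to each side were 0.13 (-0.09 to 0.35) for Phgdh, 0.24 (-0.06 to 0.53) for Psat1 and -0.04 (-0.20 to 0.12) for Pycr1. They were 0.40 (-0.12 to 0.93) for Asns, 0.10 (-0.12 to 0.32) for Slc7a5 and -0.06 (-0.33 to 0.21) for Slc3a2, all at an edgeR BH-adjusted p = 1.00. None of the 6 intervals reaches a 2-fold change in either direction, but the factor of 1.96 makes no allowance for the small number of sets. The interval of Asns comes close to 2-fold, at 0.93. Without set 1 the Asns estimate changed sign, to -0.060, and with another set left out it was as high as 0.69. A 2-fold change of Asns is therefore not excluded.

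**Figure D5:**
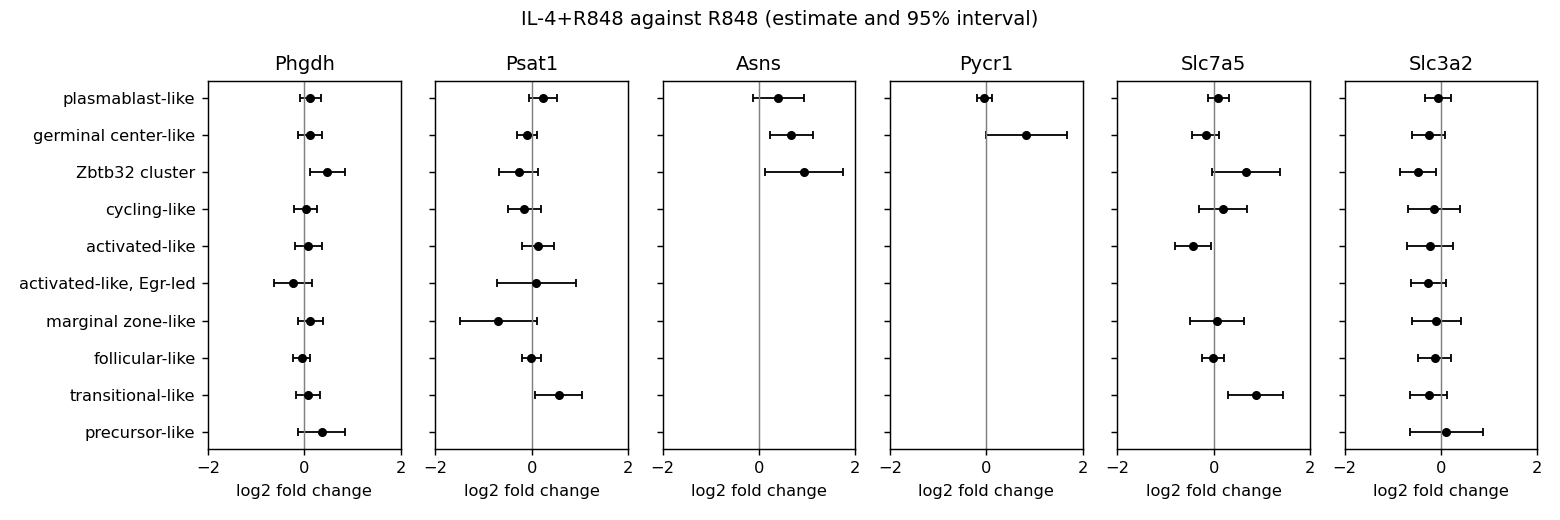
Log2 fold change of IL-4+R848 against R848 for 6 members in each class where the gene had enough counts; points are edgeR estimates and bars 1.96 SE, and the grey line marks no change. In plasmablast-like cells the estimates lie between -0.06 and 0.40, and Slc7a5 in transitional-like cells (0.87), which had the lowest adjusted p, did not pass.

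Whether the IL-4 effect on a member differed from that in follicular-like cells was tested as an interaction in 1 fit over all classes. Of 54 pairs, 3 had an unadjusted p under 0.05 and 0 passed in edgeR's test, and of the 46 that DESeq2 could test, 4 and 0 did. The shares of all genes called were 1.17% in germinal center-like, 1.07% in plasmablast-like, 0.46% in transitional-like, 0.357% in precursor-like, 0.291% in marginal zone-like and 0.169% in Zbtb32 cluster cells, and 0.0188%, 0.00939% and 0% in cycling-like, activated-like and Egr-led cells. The member with the lowest adjusted p was again Slc7a5 in transitional-like cells (difference 0.88, SE 0.39, edgeR BH-adjusted p = 0.457).

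The wider pathways were followed in 9 lists of other genes, set against follicular-like cells with both treatments averaged. The list genes did not enter the clustering, but the classes were drawn on other genes of the same cells, so the counts past an edgeR BH-adjusted p of 0.05 describe the classes and test nothing. In plasmablast-like cells 62 of 104 measured list genes were higher and 30 lower, with a median log2 fold change of 0.67, against 41.6% higher and 38.2% lower and a median of 0.03 over all genes.

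Charging of tRNA stood out in count: 18 of 20 cytosolic tRNA synthetases were higher and 1 lower (median 1.30). Such rises were not particular to plasmablast-like cells. The 3 largest synthetase changes past the threshold in germinal center-like cells were rises of Cars (1.65 log2 units), Aars (1.49) and Gars (1.40). In activated-like cells they were rises of Iars (1.26), Cars (1.18) and Rars (1.16). Yars, the tyrosyl enzyme, held 148 ± 7.72 CPM with R848 in plasmablast-like and 21.8 ± 0.805 CPM in follicular-like cells, and Nars, the asparaginyl enzyme, 256 ± 23.3 and 42.4 ± 3.87 CPM. Of genes of aspartate, glutamate and proline metabolism 7 of 10 were higher and 2 lower. Among them Aldh18a1, which opens proline synthesis from glutamate, was 2.41 log2 units higher, while Glul, glutamine synthetase, was lower by 1.77 (-1.77).

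Of serine and one-carbon genes 5 of 8 were higher and 2 lower. Shmt2, which turns serine into glycine in mitochondria, held 135 ± 17.1 CPM with R848 against 29.6 ± 2.01 CPM in follicular-like cells, and Mthfd2, the next mitochondrial folate enzyme, 44.9 ± 9.66 against 10.9 ± 0.931 CPM, while Mthfd2l, a relative of Mthfd2, was among the lower ones at -2.12. Of arginine and polyamine genes 6 of 8 were higher and 2 lower, among them Srm, spermidine synthase, at 456 ± 96.9 against 35.1 ± 1.81 CPM, and Odc1, ornithine decarboxylase, at 215 ± 20.1 against 48.3 ± 7.60 CPM. Asl, which finishes the arginine synthesis that Ass1 begins, was 1.40 log2 units higher.

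Of ATF4 and its targets 7 of 9 were higher and 0 lower, with Atf4 at 292 ± 24.3 against 118 ± 9.73 CPM and Atf5 at 27.4 ± 6.64 against 5.25 ± 1.19 CPM with R848. Chac1 had the largest change of this list, at 7.98 log2 units. Of transporters 8 of 12 were higher and 2 lower, led by Slc43a1, a carrier of large neutral amino acids (2.34 log2 units). Breakdown and sensing genes leaned the other way. In the aromatic and branched-chain breakdown list 4 of 11 were higher and 7 lower, with the kynurenine pathway genes Kynu at -3.48 and Kmo at -3.14. The largest change of that list went up, however: Bcat1, the cytosolic aminotransferase of branched-chain amino acids, held 17.3 ± 5.32 CPM with R848 against 0.166 ± 0.0744 CPM in follicular-like cells. Bcat1 was also higher in other classes, at 6.30 log2 units in germinal center-like and 4.29 in cycling-like cells, against 6.02 in plasmablast-like cells. In the sensing list 3 of 17 were higher and 10 lower, with Sesn1 and Sesn3, which restrain mTORC1, at -2.50 and -2.29, and Sar1b at 2.29. Cysteine, methionine and glutathione genes were split, with 4 of 9 in each direction.

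Germinal center-like cells had a like serine and polyamine pattern. Of serine and one-carbon genes 7 of 8 were higher and 1 lower, with Shmt1 at 37.1 ± 1.66 against 2.90 ± 0.821 CPM in follicular-like cells with R848 and Mthfd2 at 88.9 ± 8.17 against 10.9 ± 0.931 CPM. Of polyamine genes 7 of 8 were higher and 0 lower, with Odc1 at 309 ± 16.4 against 48.3 ± 7.60 CPM. Of ATF4 and its targets, however, 3 of 9 were higher and 4 lower. The largest change of that list was a rise, of Chac1 by 2.66 log2 units, while Ddit4 (-1.27) and Ddit3 (-1.01) were lower. Over all lists 59 of 104 genes were higher and 27 lower, against 37.7% and 38.3% of all genes.

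The Zbtb32 cluster differed less from follicular-like cells, with 44 of 104 list genes higher and 11 lower against 20.8% and 14.1% of all genes. Arginine and polyamine genes were higher in 6 of 8 and lower in 0, with Asl at 11.5 ± 1.30 against 7.53 ± 1.11 CPM with R848 and Srm at 42.8 ± 1.84 against 35.1 ± 1.81 CPM. Transporters were higher in 6 of 12 and lower in 0, led by Slc7a1, the arginine carrier, at 16.6 ± 2.59 against 8.92 ± 0.608 CPM. In the breakdown list 2 of 11 were higher and 3 lower, with Kynu at 0.94 and Kmo at -0.64, and Hpd and Hgd, the tyrosine breakdown enzymes upstream of Fah, had no UMI in this cluster and at most 0.0311 CPM in follicular-like cells. Gstz1, the step just before Fah, stood at 9.23 ± 1.94 CPM against 9.98 ± 1.87 CPM in follicular-like cells, so the upstream genes did not share the pattern of Fah.

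By treatment few list genes passed. In follicular-like cells 4 of 102 rose and 5 fell, beside 6.17% and 4.64% of all genes: Slc1a5, the glutamine carrier ASCT2, rose from 119 ± 4.89 to 158 ± 9.49 CPM (adjusted p = 0.0018 in edgeR), and Odc1 fell from 48.3 ± 7.60 to 34.7 ± 1.67 CPM (edgeR BH-adjusted p = 0.017). Sat1, which starts polyamine breakdown, also fell, from 214 ± 8.21 to 167 ± 4.93 CPM (edgeR BH-adjusted p = 0.0013). In transitional-like cells 4 of 89 rose and 1 fell, beside 3.38% and 2.98% of all genes, with Srm from 47.8 ± 2.91 to 83.6 ± 6.77 CPM, Slc1a5 from 184 ± 9.15 to 255 ± 6.18 CPM and Prodh, which opens proline breakdown, from 2.89 ± 1.11 to 7.26 ± 0.710 CPM (largest adjusted p = 0.048 in edgeR).

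In the Zbtb32 cluster 2 of 92 rose and 1 fell, beside 1.82% and 0.978% of all genes: Srm rose from 42.8 ± 1.84 to 75.2 ± 15.9 CPM, Shmt2 from 39.8 ± 2.88 to 58.7 ± 6.36 CPM, and Sat1 fell from 338 ± 36.0 to 193 ± 38.9 CPM (largest adjusted p = 0.043 in edgeR). Odc1 also fell in activated-like cells, from 226 ± 21.9 to 146 ± 12.1 CPM (edgeR BH-adjusted p = 0.012), and in marginal zone-like cells, where its log2 fold change was -0.63 (adjusted p = 0.037 in edgeR). There Cebpb, a C/EBP factor that partners ATF4, fell by 0.57 (edgeR BH-adjusted p = 0.028), and in Egr-led cells Ddit4, an inhibitor of mTORC1, rose by 1.49 (edgeR BH-adjusted p = 0.013). All genes called in these directions were 0.369% in activated-like, 0.558% in marginal zone-like and 1.11% in Egr-led cells. The list genes that passed lay in these 6 of the 10 classes. Without set 2, 3 list genes passed in follicular-like cells, 2 in transitional-like cells and 0 in the Zbtb32 cluster, and with the set as a block 15 passed in follicular-like cells. Without set 1 or set 3 the Zbtb32 cluster had 1 and 0 calls, and transitional-like cells 3 and 4.

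The patterns of the members over the 20 groups of class and treatment were compared by Pearson's correlation of mean log2 CPM, as a description with no test, since these groups share libraries and differ in depth. Ass1 and Fah correlated at 0.857 with each other, Phgdh and Slc7a5 at 0.941, Pycr1 and Slc3a2 at 0.883 and Phgdh and Psat1 at 0.849. Il4i1 stood apart, between -0.325 and 0.0014 with the other 9. Among 7643 genes with enough counts, those most like Il4i1 were Samsn1 (0.901), Cd83 (0.894) and Cyb5r3 (0.864). Those most like Ass1 were Rnh1 (0.927), Parm1 (0.901) and Zbtb32 (0.871), and those most like Fah were Anxa2 (0.938), Fscn1 (0.923) and Parm1 (0.919).

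For Pycr1 the closest genes were Ddost (0.985), a subunit of the enzyme that adds glycans to secretory proteins, Snd1 (0.985) and Nars (0.984). For Psat1 they were the messenger RNA export factor Alyref (0.987), Eif1ax (0.973) and Ddx39 (0.973), for Phgdh Mdh2 (0.963), Psma3 (0.955) and Psmb4 (0.954), and for Asns Naa38 (0.937), Ubfd1 (0.924) and Rap1a (0.923). Slc7a5 was closest to the translation factor Eif3a (0.971), Eprs (0.970) and Mdh2 (0.961), and Slc3a2 to Dad1 (0.959), Pgm3 (0.950) and Nbas (0.950). Zbtb32, Parm1 and Fscn1 were among the genes that lead the Zbtb32 cluster.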

How the data were processed

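Single-cell 5' libraries of 3 pooled sets were analysed. The deposited matrices give UMI counts of genes and antibody tags by barcode, not normalised. Their headers name Cell Ranger 6.0.1, per the file headers. The submitters' processing notes name the build mm10 and the tool Seurat 4.1.3. The strand setting and annotation release are not given in the sources used here. The members and gene lists were chosen with earlier results of these data known.

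The feature names gave the treatment of each hashtag. A cell needed at least 64 UMIs of 1 hashtag, at least 4 times the other plus 1, at least 500 genes and under 10% mitochondrial UMIs. Barcodes with both tags (10.8%, 8.28% and 9.23% of sets 1 to 3) were removed and no doublet caller was run, so doublets of 1 treatment remain. Counts scaled to 10000 and logged were clustered on 2000 variable genes without the members and the list genes, and without mitochondrial, ribosomal protein, T cell receptor and immunoglobulin genes, centred within set and treatment (30 principal components, 15 neighbours, Leiden at resolution 1). A class name needed at least 3 markers raised by over 0.25 log2 units, a rule made after the clusters were seen. Splits into dividing cells used at least 2 UMIs of the cycling markers. Limits of counts of 0 (3 counts of the total) cover counting error only. Intervals of log2 fold changes take their SE from the F statistic of the edgeR fit, which includes the spread between sets.

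For each class, set and treatment with at least 50 cells the UMIs were added up and the sums entered the quasi-likelihood test of edgeR 4.0.16 after filterByExpr and TMM scaling (limma 3.58.1, R 4.3.3), without a block within a class and with the set as a block across classes. A call needed an adjusted p under 0.05, by Benjamini and Hochberg (BH) over every gene in the fit. DESeq2 1.42.0, other size factors, no low-count filter, each set left out, the block, totals without immunoglobulin genes, a looser cell filter, a 10-fold hashtag rule and, chosen after seeing the data, other class limits were tried. The steps were tested on simulated data, where the fit across classes called more unchanged genes than its threshold allows. The 2 treatments of a set share a library, and deviations of their sums from the treatment means correlated at 0.432, 0.361 and 0.293 in follicular-like and 0.220, 0.195 and 0.103 in transitional-like cells. They were not over 0.1 in every set of any other class. All members are named, plus up to 3 passing genes with the largest change per list and comparison (some of which are left out where 1 group is near 0) and the 3 genes most like each member in pattern. SciPy 1.17.1, pandas 2.3.3, NumPy 2.4.6, matplotlib 3.10.9, leidenalg 0.10.2, igraph 0.11.9 and scikit-learn 1.9.0 ran the other steps in Python 3.11.15.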

Additional observations from a re-analysis of the deposited data

Results flagged for a closer look

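Among the list genes, a single one differed between classes by a test of the difference itself. Cebpb, a C/EBP factor of the ATF4 list, stood at 86.8 ± 7.46 CPM with R848 and 60.1 ± 7.43 CPM with IL-4+R848 in follicular-like cells, and at 130.3 ± 22.6 and 142 ± 13.9 CPM in plasmablast-like cells. The IL-4 effect was 0.65 log2 units higher in plasmablast-like than in follicular-like cells (SE 0.17, edgeR BH-adjusted p = 0.0476 for the interaction). This was 1 of 104 list genes tested in that comparison (0.962%), beside 1.07% of all genes called, so the count is at the background share. The adjusted p lies just under the threshold, and on simulated data this fit called more unchanged genes than its threshold allows, so the call is uncertain.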

How the results depend on the processing

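No member was called between treatments under any alternative run, the replicate block included, and the lowest adjusted p of a member within a class ranged from 0.0584 with no low-count filter to 0.374 without set 2. With the unnamed clusters 4 and 5 in the follicular-like class, Slc7a5 there stood 0.33 log2 units higher with IL-4+R848 (adjusted p = 0.0606 in edgeR). The Il4i1 difference stayed above 0 in each class under each alternative run. The Asns change in plasmablast-like cells of 0.40 ranged from -0.060 without set 1 to 0.69 without set 3. Counts of other classes' calls depended on the processing, and the cause was not tested.

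With each set left out in turn, genes called between treatments ranged from 62 to 104 in activated-like cells, 53 to 76 in Egr-led, 49 to 64 in cycling-like, 575 to 803 in follicular-like and 11 to 15 in germinal center-like cells. They ranged from 59 to 82 in marginal zone-like, 1 to 6 in plasmablast-like, 5 to 15 in precursor-like, 198 to 348 in transitional-like and 53 to 187 in Zbtb32 cluster cells. Interaction calls ranged from 0 to 0 in activated-like and cycling-like, 32 to 53 in germinal center-like, 0 to 3 in marginal zone-like, 41 to 86 in plasmablast-like, 10 to 34 in precursor-like, 3 to 15 in transitional-like and 2 to 3 in Zbtb32 cluster cells. List genes higher in the Zbtb32 cluster ranged from 29 to 37, and list genes called by treatment from 3 to 6 in follicular-like, 2 to 4 in transitional-like and 0 to 1 in Zbtb32 cluster cells.

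With no low-count filter, calls between treatments were 344 in activated-like, 272 in Egr-led, 343 in cycling-like, 201 in germinal center-like, 337 in marginal zone-like, 6 in plasmablast-like, 82 in precursor-like, 902 in transitional-like and 542 in Zbtb32 cluster cells, list genes 10 and 6 in the last 2, and interactions 2 in activated-like, 2 in Egr-led, 1 in cycling-like and 15 in marginal zone-like cells. Without immunoglobulin genes they were 236, 175, 231, 95, 198, 19 and 17 in the same classes up to precursor-like and 433 in Zbtb32 cluster cells, list genes 8 in transitional-like and 5 in Zbtb32 cluster cells, and 18 list genes were lower in the latter. Interactions were then 2 in activated-like, 2 in Egr-led, 23 in cycling-like, 307 in germinal center-like, 101 in marginal zone-like, 265 in plasmablast-like, 207 in transitional-like and 42 in Zbtb32 cluster cells.

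DESeq2 called 86 genes in germinal center-like, 34 in plasmablast-like and 335 in transitional-like cells (3 list genes), and interactions of 83 in Zbtb32 cluster, 4 in Egr-led, 5 in activated-like, 54 in cycling-like, 329 in germinal center-like, 138 in marginal zone-like, 283 in plasmablast-like, 58 in precursor-like and 210 in transitional-like cells. With the replicate block, 274 were called in activated-like, 177 in germinal center-like and 19 in precursor-like cells, and 15 list genes in follicular-like cells, and it changed no member's call. With no replicate block, interactions were 7 in Zbtb32 cluster, 0 in activated-like, 0 in cycling-like, 77 in germinal center-like, 7 in marginal zone-like, 20 in precursor-like and 28 in transitional-like cells.

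The 10-fold hashtag rule gave 9 calls in germinal center-like and 4 in precursor-like cells, and interactions of 6 in Zbtb32 cluster, 1 in cycling-like, 60 in germinal center-like and 87 in precursor-like cells. Chosen after seeing the data, clustering anew gave 674 calls in activated-like cells, 3 list genes in transitional-like cells and interactions of 48 in activated-like and 11 in cycling-like cells. Clusters 4 and 5 in the follicular-like class, also chosen after seeing the data, gave 16 list genes there and interactions of 6 in activated-like, 24 in cycling-like, 275 in germinal center-like, 62 in marginal zone-like, 213 in plasmablast-like and 19 in transitional-like cells. With 3 sets per treatment and few UMIs of Asns, Fah and Slc7a11, small differences of these genes were not detectable at this depth.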

Other observations

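Cells that no marker list named also held members. In unnamed cluster 4, led by Cbr3, Dse and Nfil3, Il4i1 stood at 759 ± 67.4 CPM in IL-4+R848 cells, close to the 758 ± 214 CPM of activated-like cells, and at 130.2 ± 39.4 CPM in its few R848 cells. Ass1 stood at 17.4 ± 0.771 CPM there with IL-4+R848. In unnamed cluster 5, led by Wfdc21, Il4i1 went from 36.8 ± 14.0 to 266 ± 22.3 CPM, with ratios of 5.37, 7.88 and 10.4 in sets 1 to 3.

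Unnamed cluster 19, led by the pre-B genes Dntt, Vpreb1 and Vpreb2 with Lyz2, held Ass1 at 149 ± 61.5 CPM with R848 and 117 ± 55.3 CPM with IL-4+R848, and Fah at 1.17 ± 2.03 and 0.952 ± 1.65 CPM. Ass1 was thus high without Fah in these 307 cells, unlike in the Zbtb32 cluster. Il4i1 there was at 10.2 ± 5.55 and 13.8 ± 5.45 CPM, and its groups overlapped.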
